A study of Mus musculus with 24 samples.

Results

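The cortical layer markers are genes that anatomical atlases and cell-type studies use to tell the upper from the deep layers of the neocortex. The list held 35 genes, 14 of the upper and 21 of the deep layers, and its members were the rows of the count table that carry those gene symbols. Of 45777 genes in the table, 34 were members, 14 upper and 20 deep. The deep-layer antisense RNA Nr4a2os was not found under that symbol and is not analysed here. All 34 members found are protein-coding, lie clear of every other protein-coding gene, and passed the filter on low counts. Counts of single members ran from 98 reads for Nxph4 to 13695 reads for Pcp4 per library.

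RNA-seq was done on the prefrontal cortex of wild-type adult male mice in 24 libraries, 6 in each of 4 groups. MS_EC12 mice had been through MS (maternal separation, the removal of pups from their mother in early life) and were given EC-12, a preparation of heat-killed Enterococcus faecalis. Control_EC12 mice were given EC-12 without MS, MS mice had MS without EC-12, and Control mice had neither. EC-12 was supplied for 5 weeks. The exact age, the length of the separations and the number of animals per library are not stated in these sources. Library sizes ran from 29804781 to 39252382 reads in MS_EC12, from 26250197 to 33899807 in Control_EC12, from 27772142 to 33710435 in MS and from 27229269 to 36336886 in Control. The labels do not state that libraries of a group came from separate mice, so every p-value measures the spread between these libraries, which may be technical.

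The neocortex is built of stacked layers of excitatory neurons that differ in birth date and target. Deep-layer neurons are born earlier and send axons out of the cortex to the thalamus, brainstem and spinal cord, while upper-layer neurons are born later and mostly connect cortical areas with each other. Transcription factors such as Fezf2, Bcl11b and Tbr1 set the deep identities during development, Cux and POU factors mark the upper ones, and many of them stay expressed in the adult. In the prefrontal cortex of rodents the granular input layer that Rorb marks elsewhere is thin or missing. In bulk tissue, fewer neurons of a layer and less RNA per neuron cannot be told apart.

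Start-site sequences are given for 4 members, because Sema3e and Rorb had low values in the same libraries, Cplx3 had high values there, and Inhbb was the single member without overlap between a pair of groups. The sequences are RefSeq windows of build GRCm38.p6, which is mm10, from 250 bases before to 50 bases after the annotated start, printed 5′ to 3′ in the direction of the gene, with AGGTCA, the core motif bound by ROR receptors such as Rorb, in capitals where it occurs.
Inhbb (chr1:119422199-119422498, minus strand): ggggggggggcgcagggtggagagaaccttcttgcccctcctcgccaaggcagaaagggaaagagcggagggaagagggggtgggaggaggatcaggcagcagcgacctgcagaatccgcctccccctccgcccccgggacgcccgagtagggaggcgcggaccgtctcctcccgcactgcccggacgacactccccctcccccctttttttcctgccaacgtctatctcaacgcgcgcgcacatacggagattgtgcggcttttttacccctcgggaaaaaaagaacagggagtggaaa
Sema3e (chr5:14025026-14025325, plus strand): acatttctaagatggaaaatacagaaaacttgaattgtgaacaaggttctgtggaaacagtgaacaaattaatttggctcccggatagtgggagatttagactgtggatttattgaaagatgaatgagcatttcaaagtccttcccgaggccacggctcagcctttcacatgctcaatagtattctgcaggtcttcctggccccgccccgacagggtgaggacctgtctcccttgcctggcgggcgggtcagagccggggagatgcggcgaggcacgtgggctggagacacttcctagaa
Rorb (chr19:19111147-19111446, minus strand): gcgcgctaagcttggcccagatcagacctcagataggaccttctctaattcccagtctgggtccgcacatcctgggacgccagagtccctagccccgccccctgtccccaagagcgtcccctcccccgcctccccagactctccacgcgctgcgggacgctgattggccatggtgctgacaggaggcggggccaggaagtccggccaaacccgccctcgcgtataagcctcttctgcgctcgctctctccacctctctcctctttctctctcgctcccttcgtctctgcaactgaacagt
Cplx3 (chr9:57606232-57606531, minus strand): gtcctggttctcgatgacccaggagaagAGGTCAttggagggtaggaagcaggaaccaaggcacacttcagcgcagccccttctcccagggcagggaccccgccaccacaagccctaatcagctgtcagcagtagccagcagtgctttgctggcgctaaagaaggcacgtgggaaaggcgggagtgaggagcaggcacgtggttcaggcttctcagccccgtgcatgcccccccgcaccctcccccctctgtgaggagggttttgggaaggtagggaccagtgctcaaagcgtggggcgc
Windows were found for 26 of the 34 members, 36 windows in all. Foxp2, Nxph4, Nxph3, Crym, Calb1, Otof, Unc5d and Sulf1 are named without a sequence. GC content was 64.3% in the Inhbb window, 50.7% in that of Sema3e, 63.7% in the Rorb window printed, 41.0% in a second Rorb window, and 62.7% in that of Cplx3, and the median was 61.8% over member windows and 52.7% over all 32851 windows. AGGTCA, searched on both strands, lay in 5 of the 36 member windows, those of 4 members, Cplx3, Pcp4, Rgs8 and Syt6, and in 16.3% of all windows. The Cut-factor site ATCGAT lay in 1 of the 36 member windows, in Cux2, against 0.925% of all windows. The LIM homeodomain core TAATTA lay in 2 of the 36, in Syt6 and Tbr1, against 5.29% of all windows. The octamer ATGCAAAT of POU factors was in 0 member windows, against 1.74% of all windows. A match describes these letters only.

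Marker levels in length-corrected units spanned more than 2 orders of magnitude. Pcp4, a small calmodulin-binding protein of subcortically projecting neurons, was the most abundant, with a mean of 1092.8 TPM over the 24 libraries. Crym, which binds thyroid hormone in the cytosol, followed with 167.7 TPM and Rprm, a cell-cycle inhibitor in other cells and a mark of corticothalamic neurons, with 94.1 TPM. Calb1, the calcium buffer calbindin, was the highest upper marker at 91.3 TPM; calbindin is also made by some interneurons. The levels of Rprm and Calb1 do not differ beyond their SDs over libraries, 9.0 and 15.5 TPM. Next came Sulf2, an extracellular heparan sulfate sulfatase, at 69.6 TPM, and Tbr1, the T-box factor of corticothalamic neurons, at 63.0 TPM, and these neighbours too lay within their SDs of 7.42 and 8.61 TPM. The lowest members were Rorb, a nuclear receptor (7.71 TPM), the neurexin ligand Nxph4 (7.23 TPM), Inhbb, which encodes an activin subunit (3.44 TPM), and Npr3, the clearance receptor for natriuretic peptides (3.44 TPM). The median level was 30.2 TPM over the 14 upper members and 30.8 TPM over the 20 deep ones. The transcription factors at the middle of the range were Lhx2 (42.6 TPM), Cux1 (40.2 TPM), Bcl11b (37.1 TPM), Etv1 (32.4 TPM) and Cux2 (27.2 TPM), and Fezf2 stood lower at 16.4 TPM.

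**Figure D1:**
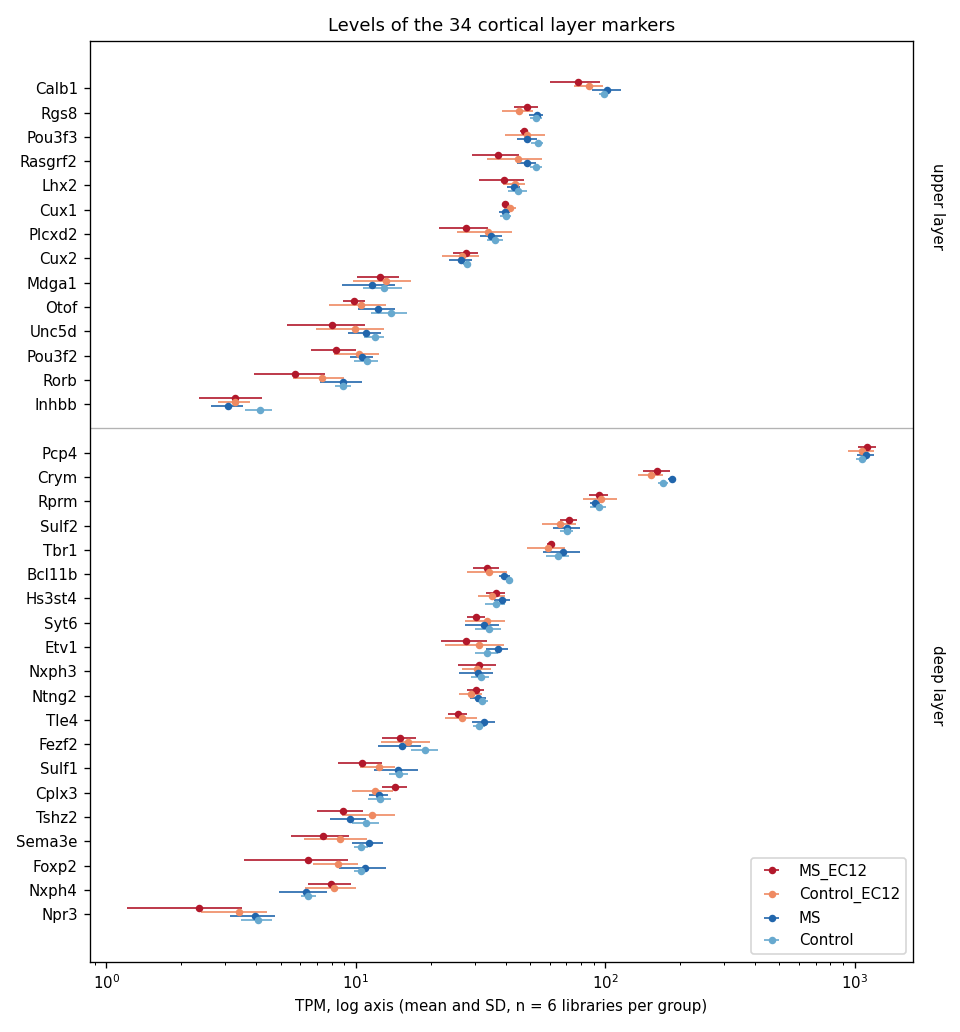
Mean TPM per group with the SD over 6 libraries (log axis) for 14 upper and 20 deep layer markers, ordered by level within each layer, with MS_EC12, Control_EC12, MS and Control from top to bottom in each row. Pcp4 stands at 1092.8 TPM and Npr3 and Inhbb at 3.44 TPM, and the 4 group means of a gene lie close together beside the range between genes.

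Spread between libraries of the same group also differed among members. Cux1, a Cut-family homeodomain factor that many cell types express, was the steadiest, with a within-group coefficient of variation of 4.34%. Npr3 was the most variable at 24.2%, followed by Foxp2, a forkhead factor of deep corticothalamic neurons, at 22%, and Unc5d, a netrin receptor, at 20.1%. The median was 13.7% for upper and 13.0% for deep members. Control libraries were closer together: their coefficient was 5.73% for Foxp2 and 7.14% for Rorb, and 12.7% for Npr3. In MS_EC12 the coefficient of Foxp2 reached 43.0%. The library with the lowest value of all 24 was MS_EC12 replicate 6 for 11 of the 34 members, and MS replicate 5 held the highest value for 6.

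Libraries differed in how counts depended on the GC content of transcripts, and this touches several members. For each library, the deviation of every gene from its mean over libraries was regressed on the GC content of the gene's longest transcript, and the slope is in log2 units per 10 percentage points of GC. The slope was above 0 in 4 MS_EC12 libraries (replicates 3 to 6), 2 Control_EC12 libraries (replicates 3 and 4), 1 MS library (replicate 3) and 0 Control libraries, and it ran from -0.206 to 0.627 overall. The other 17 libraries had slopes below 0, and each comparison was therefore repeated in them. The labels name no batch behind this split. With 0 Control and 1 MS library among the 7 above 0, no test was run within those. Transcript GC of the members ran from 36.78% in Calb1 to 61.37% in Nxph4, with medians of 50.24% in upper and 50.7% in deep markers.

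Genes that mark other cells and regions were read as lists. Summed over 11 general markers of excitatory neurons, which were all detected, libraries held 6446.3 to 7924.6 CPM (counts scaled to library size) in MS_EC12, 5763.0 to 7822.3 in Control_EC12, 5185.7 to 7537.0 in MS and 5962.5 to 7264.9 in Control. MS_EC12 replicate 6 stood apart in 7 choroid plexus and ependymal markers, with 719.8 CPM against 14.2 to 79.6 CPM in the other 23 libraries. Striatal markers summed to 1304.0 to 3020.0 CPM in MS_EC12, 1337.3 to 2540.6 in Control_EC12, 1905.5 to 2667.3 in MS and 1884.4 to 2268.9 in Control. Bcl11b, Foxp2 and Pcp4 are also expressed in striatum. Olfactory bulb markers summed to 99.9 to 452.0 CPM in MS_EC12, 180.3 to 529.4 in Control_EC12, 64.1 to 264.6 in MS and 71.6 to 291.5 in Control. Their part in the values of the layer markers was not tested.

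The upper and deep lists were first compared as a whole, by the mean log2 CPM of each list in every library. The upper mean was 5.636 ± 0.0748 in MS_EC12, 5.707 ± 0.106 in Control_EC12, 5.753 ± 0.0564 in MS and 5.854 ± 0.0284 in Control (SD, n = 6 each). The deep mean was 5.328 ± 0.0251 in MS_EC12, 5.333 ± 0.0478 in Control_EC12, 5.407 ± 0.0836 in MS and 5.418 ± 0.0258 in Control. Both lists thus had their largest group mean in Control. Both had their smallest in MS_EC12, but in each list the means of MS_EC12 and Control_EC12 lay within their SDs of each other. In the libraries with slopes below 0 the deep mean was 5.337 in MS_EC12 and 5.33 in Control_EC12. Upper minus deep was 0.307 ± 0.0595 in MS_EC12, 0.374 ± 0.132 in Control_EC12, 0.346 ± 0.11 in MS and 0.437 ± 0.046 in Control. It ran from 0.196 to 0.368 in MS_EC12 libraries, from 0.185 to 0.59 in Control_EC12, from 0.186 to 0.488 in MS and from 0.376 to 0.506 in Control. All groups overlapped in it except MS_EC12 with Control, a pair that differs in MS and EC-12 at once. The ranges of that pair nearly touched, at 0.368 and 0.376, beside a pooled within-group SD of 0.094. These scores get no test, since the members were chosen with results of these data known.

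The upper mean overlapped little between MS_EC12 and MS, and likewise between Control_EC12 and Control. MS_EC12 libraries lay between 5.485 and 5.68, and MS libraries between 5.661 and 5.821. The overlap of MS_EC12 and MS rests on MS replicate 3, the MS library with a GC slope above 0. Control_EC12 libraries lay between 5.529 and 5.836 and Control libraries between 5.802 and 5.88, and that overlap rests on Control_EC12 replicate 1. MS replicates 1 and 2, at 5.804 and 5.821, reached into the Control range. Among libraries with slopes below 0 the upper mean was 5.674 and 5.68 in the 2 MS_EC12 libraries and 5.741 to 5.821 in the 5 MS libraries, while Control_EC12 libraries had 5.71 to 5.836 and Control libraries 5.802 to 5.88. In those libraries upper minus deep averaged 0.34 in MS_EC12, 0.434 in Control_EC12, 0.36 in MS and 0.437 in Control.

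**Figure D2:**
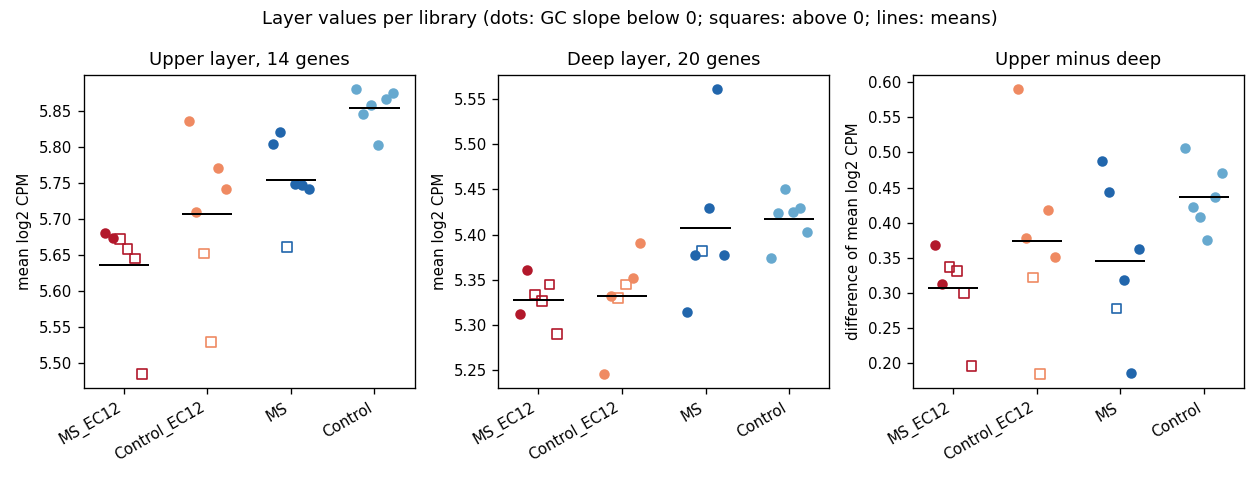
Mean log2 CPM of 14 upper markers (left), of 20 deep markers (middle) and their difference (right) in each of 24 libraries, with lines at group means of 6. Squares are the 7 libraries with a GC slope above 0; the lowest upper mean, 5.485, is MS_EC12 replicate 6, and Control libraries lie between 5.802 and 5.88.

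Across the single genes, no member passed an adjusted p of 0.05 in any comparison with the quasi-likelihood test of edgeR over 18380 genes. Calls were rare among all genes too: 0.163% in MS_EC12 against MS, 0.261% in MS_EC12 against Control_EC12, 0.0218% in Control_EC12 against Control, 0.0326% in MS against Control, and 0.0109% for the interaction, which is the EC-12 difference in MS mice minus that in Control mice. The count of 0 among 34 members is therefore near the background and is no result about the layer markers. The 95% intervals of the log2 fold changes reflect the spread between libraries, and make no allowance for GC slopes that differ between the groups. SEs lay between 0.0509 and 0.214, with a median of 0.113, in each comparison of a pair of groups. By that spread, a difference in Cux1 was measured far more closely than one in Npr3.

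**Figure D3:**
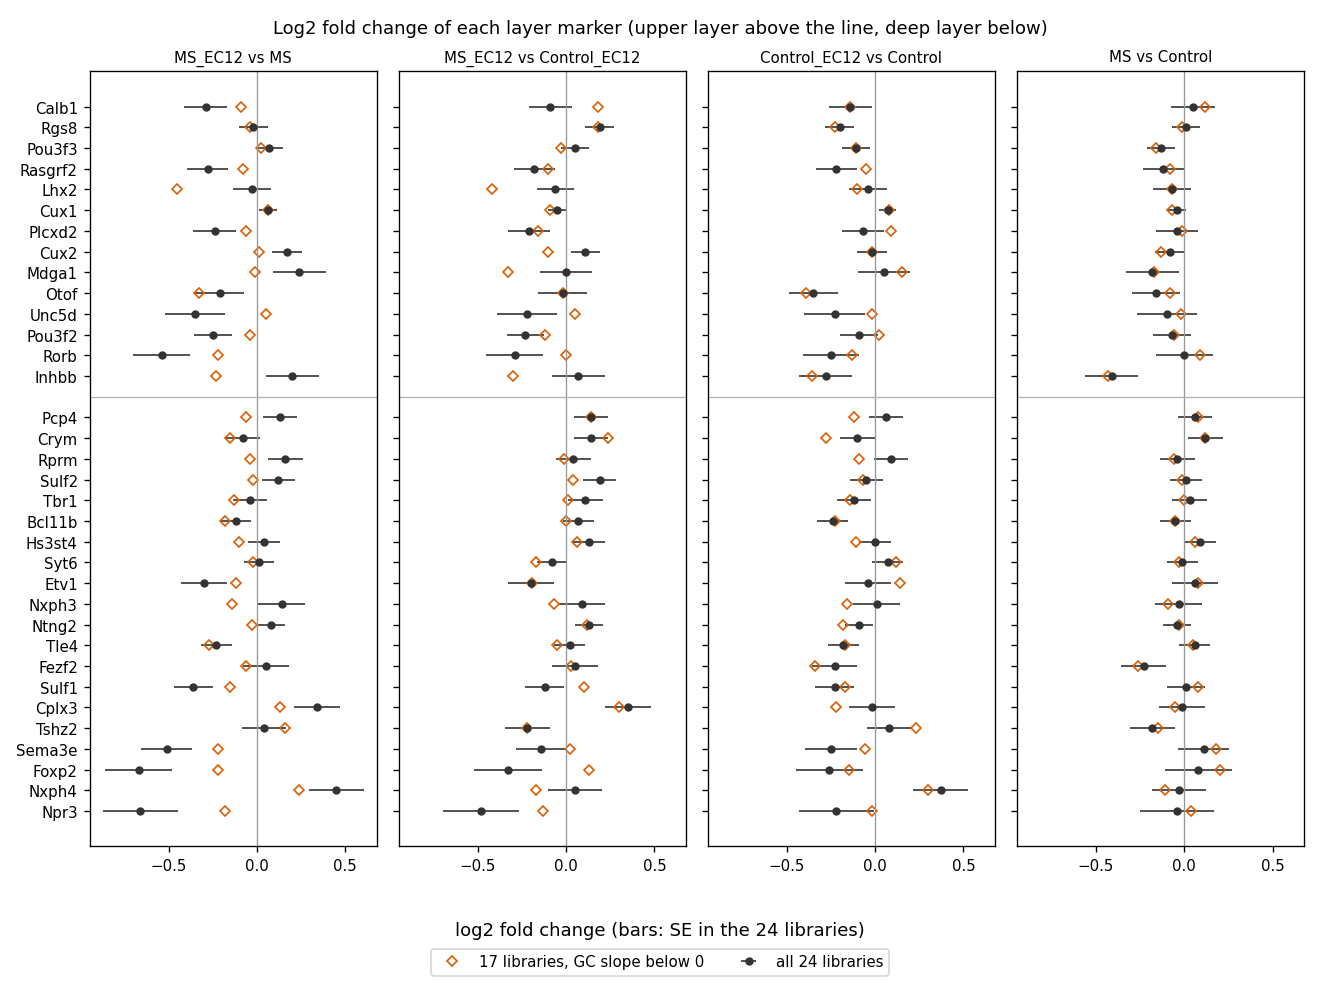
Log2 fold change of each layer marker in 4 comparisons, as dots with SE bars from 24 libraries and as open diamonds from the 17 libraries with a GC slope below 0. In MS_EC12 against MS the dots of Foxp2 (-0.67), Npr3 (-0.66), Rorb (-0.54) and Sema3e (-0.51) lie far left of their diamonds (-0.22, -0.18, -0.22 and -0.22).

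MS was compared with Control to see what early separation alone left in the adult layers. Upper markers had 3 positive and 11 negative log2 fold changes, with a median of -0.075, and deep markers had 10 and 10, with a median of 0.0, beside -0.006 over all genes tested. One member, Inhbb, had an unadjusted p under 0.05, as did 3.6% of all genes. Inhbb encodes the beta B subunit of activins and inhibins, secreted signals of the TGF-beta family. Its lowest, median and highest values were 4.52, 5.73 and 6.21 CPM in MS libraries, against 6.72, 6.92 and 9.02 CPM in Control libraries. All 6 MS libraries lay below all 6 Control libraries, which no other member did, and 0.718% of all genes tested had groups that did not overlap. The means were 5.45 ± 0.732 CPM in MS and 7.28 ± 0.869 CPM in Control (SD, n = 6 each), with a log2 fold change of -0.41 ± 0.151 (SE). Its adjusted p from edgeR was 1.0. In the 17 libraries it was -0.43 ± 0.11 with an adjusted p of 0.0912.

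Fezf2, the zinc-finger factor that specifies subcerebral projection neurons, came next among the negative values. It had 16.7, 26.8 and 28.7 CPM (lowest, median and highest) in MS, against 26.2, 29.4 and 34.5 CPM in Control. The groups overlapped, although every MS library was below the Control median, and MS replicate 1 lay far under the rest. The log2 fold change was -0.23 ± 0.129 (edgeR, adjusted p = 1.0), and -0.14 without MS replicate 1. Pou3f3, a POU factor of upper-layer neurons, had 79.8, 89.8 and 101.0 CPM in MS and 94.9, 96.7 and 106.9 CPM in Control, with 4 of 6 MS libraries below the lowest Control one. Its log2 fold change was -0.13 ± 0.0781 (adjusted p = 1.0). In the positive direction stood Crym, whose product binds thyroid hormone, with 89.3, 98.7 and 101.8 CPM in MS against 85.6, 89.7 and 93.2 CPM in Control. Here 5 of 6 MS libraries lay above the highest Control one, with a log2 fold change of 0.12 ± 0.0967 (adjusted p = 1.0). Hs3st4, a heparan sulfate sulfotransferase of corticothalamic neurons, and Sema3e, a secreted semaphorin that guides axons and vessels, had log2 fold changes of 0.09 ± 0.0922 and 0.11 ± 0.144. Without MS replicate 3 the Sema3e value was 0.18 and that of Hs3st4 0.06. In the 17 libraries 0 members passed, beside 0.435% of all genes.

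Control_EC12 was compared with Control to see the response to EC-12 in mice without MS. Negative values were in the majority: 12 of 14 upper markers and 13 of 20 deep markers, with medians of -0.127 and -0.073, beside 0.01 over all genes tested. Unadjusted p-values under 0.05 were found for 5 members, Bcl11b, Otof, Rgs8, Sulf1 and Nxph4, or 14.7%, beside 8.93% of all genes. Groups did not overlap in 0 members and in 1.33% of all genes. Bcl11b, the zinc-finger factor that acts with Fezf2 in corticospinal neurons, had 94.9, 119.7 and 137.3 CPM in Control_EC12, against 137.1, 140.5 and 146.2 CPM in Control. The groups touched in a single library, Control_EC12 replicate 3, and all 6 Control_EC12 libraries were below the Control median. Its log2 fold change was -0.24 ± 0.0875 (edgeR, adjusted p = 0.399) and -0.23 in the 17 libraries. Of 12 striatal markers, 11 were negative in the same comparison, with a median of -0.135, and 0 were positive in the 17 libraries, with a median of -0.356. The lowest Bcl11b value of all 24 libraries, 94.9 CPM, was in Control_EC12 replicate 4. Its striatal sum of 2030.5 CPM lay within the Control range of 1884.4 to 2268.9 CPM. The part of the striatal markers in the Bcl11b values was not tested.

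Otof encodes otoferlin, a calcium sensor of vesicle fusion best known from inner hair cells. It had 20.4, 30.3 and 43.1 CPM in Control_EC12, against 32.5, 41.6 and 47.6 CPM in Control, and its log2 fold change was -0.35 ± 0.139 (adjusted p = 0.452). The groups overlapped, with 4 of 6 Control_EC12 libraries below the lowest Control one. Rgs8, which shortens G-protein signals, had 99.4, 108.2 and 130.0 CPM in Control_EC12, against 116.2, 127.9 and 137.2 CPM in Control. Here 5 of 6 Control_EC12 libraries were below the lowest Control one, and the log2 fold change was -0.20 ± 0.0817 (adjusted p = 0.46). Nxph4, a neurexophilin that binds alpha-neurexins, went the other way with 4.21, 5.89 and 7.73 CPM in Control_EC12, against 4.16, 4.54 and 4.7 CPM in Control. Of the Control_EC12 libraries 5 of 6 lay above the highest Control one, and the log2 fold change was 0.37 ± 0.154 (adjusted p = 0.469), or 0.27 without Control_EC12 replicate 2. That library held the highest sum of olfactory bulb markers of all 24, 529.4 CPM, and the part of this in Nxph4 was not tested. Cux1 (0.07 ± 0.0509) and Rprm (0.09 ± 0.0987) followed, and in the 17 libraries the Rprm value was -0.09.

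In the 17 libraries 1 member passed the test in this comparison, Crym, beside 0.456% of all genes. Its log2 fold change there was -0.28 ± 0.0612 (edgeR, adjusted p = 0.0498), against -0.10 ± 0.0968 (adjusted p = 0.736) in all 24 libraries. The 4 Control_EC12 libraries with slopes below 0 had 67.1, 75.1, 75.6 and 77.1 CPM, against 85.6 to 93.2 CPM in the 6 Control libraries. The 2 others, with slopes above 0, had 90.3 and 112.7 CPM. Striatal markers split the same libraries: they summed to 1337.3 to 1799.3 CPM in the first 4 and to 2030.5 and 2540.6 CPM in the 2 others, against 1884.4 to 2268.9 CPM in Control, and their part in the Crym values was not tested. The call was made without these 2 and the 5 other libraries with slopes above 0, and not with them.

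MS_EC12 was compared with MS to see the response to EC-12 in separated mice. Values in all 24 libraries spread more widely here than in the other comparisons, from -0.67 in Foxp2 to 0.45 in Nxph4. Upper markers had 5 positive and 9 negative values, with a median of -0.124, and deep markers 11 and 9, with a median of 0.024, beside 0.015 over all genes tested. An unadjusted p under 0.05 was found for 12 of 34 members and for 31.8% of all genes. In the negative direction these were 10 members, Rorb, Rasgrf2, Calb1, Pou3f2, Tle4, Foxp2, Etv1, Sulf1, Npr3 and Sema3e, beside 16.3% of all genes. In the positive direction they were 2, Nxph4 and Cplx3, beside 15.5%. Groups did not overlap in 0 members and in 0.854% of all genes. The smallest adjusted p among members was 0.0789.

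Foxp2 had 13.3, 15.3 and 34.5 CPM (lowest, median and highest) in MS_EC12, against 18.2, 32.0 and 35.4 CPM in MS. The 4 MS_EC12 libraries with slopes above 0 lay between 13.3 and 15.5 CPM, below every MS library, while the other 2 had 22 and 34.5 CPM. Likewise the lowest MS library, at 18.2 CPM, was replicate 3, whose slope was above 0. The log2 fold change was -0.67 ± 0.191 (edgeR, adjusted p = 0.0789) in all libraries and -0.22 ± 0.116 (adjusted p = 0.591) in the 17. Sema3e, with 16.9, 20.8 and 30.4 CPM in MS_EC12 and 24.3, 32.6 and 37.6 CPM in MS, split in the same libraries. The log2 fold change of Sema3e was -0.51 ± 0.145 (adjusted p = 0.0789), and -0.22 ± 0.0779 (adjusted p = 0.351) in the 17. Rorb, which marks the input layer, had 15.6, 22.8 and 31.6 CPM in MS_EC12, against 23.5, 35 and 43.1 CPM in MS. All 6 MS_EC12 libraries were below the MS median, and 3 were below the lowest MS library. Its log2 fold change of -0.54 ± 0.162 (adjusted p = 0.0799) was -0.22 ± 0.109 (adjusted p = 0.55) in the 17 libraries. Without MS_EC12 replicate 6, the library rich in choroid plexus and ependymal markers, the values in the remaining 23 were -0.59 for Foxp2, -0.43 for Sema3e and -0.44 for Rorb.

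Among the other low values, the sulfatase Sulf1 had a log2 fold change of -0.36 ± 0.11 (adjusted p = 0.0805), and Npr3 one of -0.66 ± 0.214 (adjusted p = 0.0843). In the 17 libraries these were -0.15 and -0.18. Sulf1 and Sulf2 remove the same sulfate groups from heparan sulfate, and their TPM ratio was 0.15 ± 0.0394 in MS_EC12 and 0.21 ± 0.0361 in MS (SD, n = 6 each). The ratio of the POU factors Pou3f2 over Pou3f3 was 0.176 ± 0.0388 in MS_EC12 and 0.217 ± 0.0177 in MS. In both pairs the numerator has the lower transcript GC, 46.71% in Sulf1 against 53.34% in Sulf2, and 44.42% in Pou3f2 against 51.14% in Pou3f3. Neurexophilin ratios, Nxph3 over Nxph4, were 4.01 ± 0.996 in MS_EC12 and 5.05 ± 1.1 in MS. Cux1 over Cux2 was 1.44 ± 0.188 in MS_EC12 and 1.51 ± 0.135 in MS. Here too the numerator has the lower GC, 60.22% in Nxph3 against 61.37% in Nxph4, and 49.95% in Cux1 against 55.5% in Cux2. The part of GC content in the ratios was not tested.

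Nxph4 and Cplx3 had the largest positive values. Nxph4 had 3.94, 6.2 and 7.51 CPM in MS_EC12, against 3.36, 4.34 and 5.58 CPM in MS, with 5 of 6 MS_EC12 libraries above the highest MS one. Its log2 fold change was 0.45 ± 0.153 (edgeR, adjusted p = 0.0873), and 0.24 ± 0.208 in the 17 libraries. Cplx3, a complexin that binds the synaptic fusion machinery and marks neurons left from the subplate, had 15.3, 18.8 and 23.2 CPM in MS_EC12, against 13.1, 14.1 and 16.7 CPM in MS. All 6 MS_EC12 libraries were above the MS median and 4 above the highest MS library. The log2 fold change was 0.34 ± 0.13 (adjusted p = 0.104), and 0.13 ± 0.138 in the 17 libraries. Its highest library was MS_EC12 replicate 6, the one with 719.8 CPM of choroid plexus and ependymal markers, and without it the value was 0.27. Cux2, the partner of Cux1 in upper-layer neurons, had 71.0, 92.4 and 96.3 CPM in MS_EC12, against 66.1, 77.4 and 93.3 CPM in MS, a log2 fold change of 0.17 ± 0.0845 (adjusted p = 0.174) that was 0.01 in the 17 libraries.

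**Figure D4:**
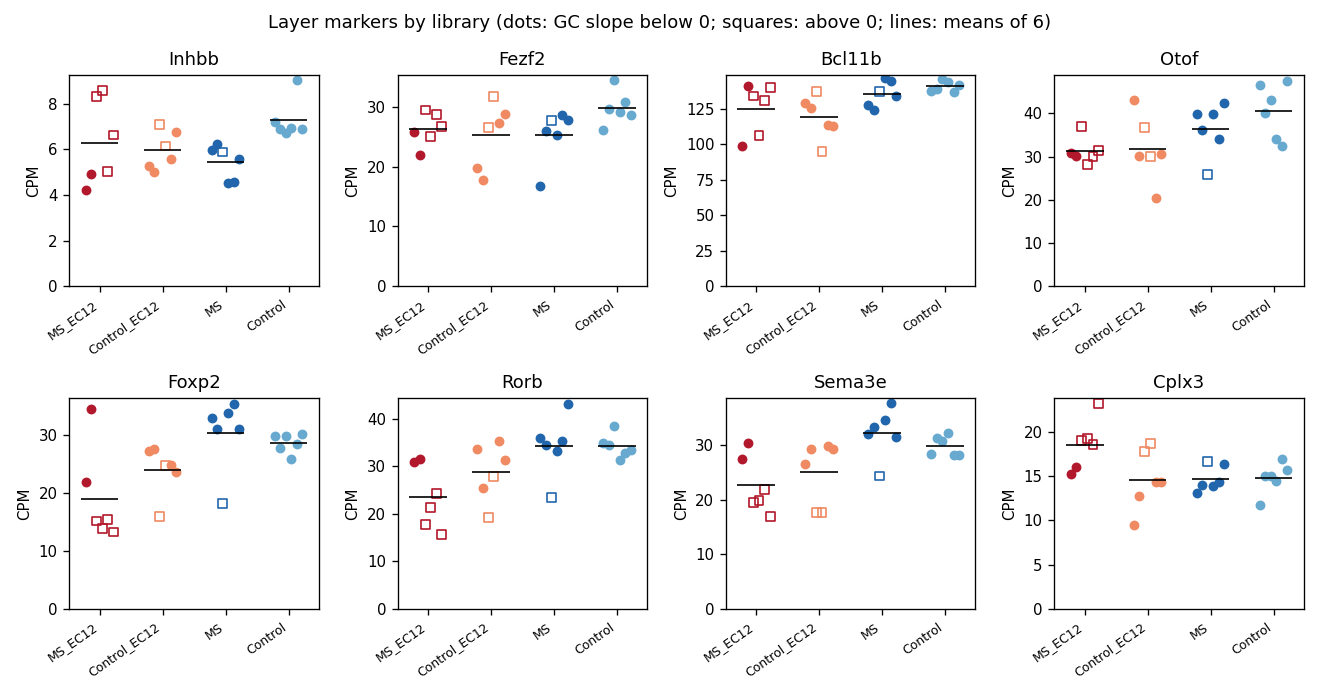
CPM of 8 layer markers in each library of MS_EC12, Control_EC12, MS and Control, with lines at means of 6 libraries; squares are libraries with a GC slope above 0. For Inhbb the MS dots end at 6.21 CPM and the Control dots begin at 6.72 CPM, and for Foxp2 the 4 MS_EC12 squares lie between 13.3 and 15.5 CPM.

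Transcript GC content went with the values of the members in MS_EC12 against MS. Of the 17 members below the median GC, 14 had a negative log2 fold change, with a median of -0.281, and of the 17 above it, 13 had a positive one, with a median of 0.076. As a description over 34 genes that share their libraries, Pearson's r between GC content and log2 fold change was 0.78. In the 17 libraries with slopes below 0 it was 0.13, and the medians were -0.123 below and -0.04 above the median GC. Those libraries were chosen by their GC slope and hold 2 from MS_EC12, so r in them is not independent of that choice. Foxp2 has 42.63% GC, Sema3e 42.01%, Rorb 41.62% and Npr3 44.01%, while Nxph4 has 61.37% and Cplx3 52.4%. Each of these sets of 17 held 7 upper markers, so upper and deep members were spread evenly over GC. Whether the GC dependence accounts for the values of the members was not tested, and GC slope and EC-12 are linked in this design, with 4 of 6 MS_EC12 libraries and 1 of 6 MS libraries above 0.

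**Figure D5:**
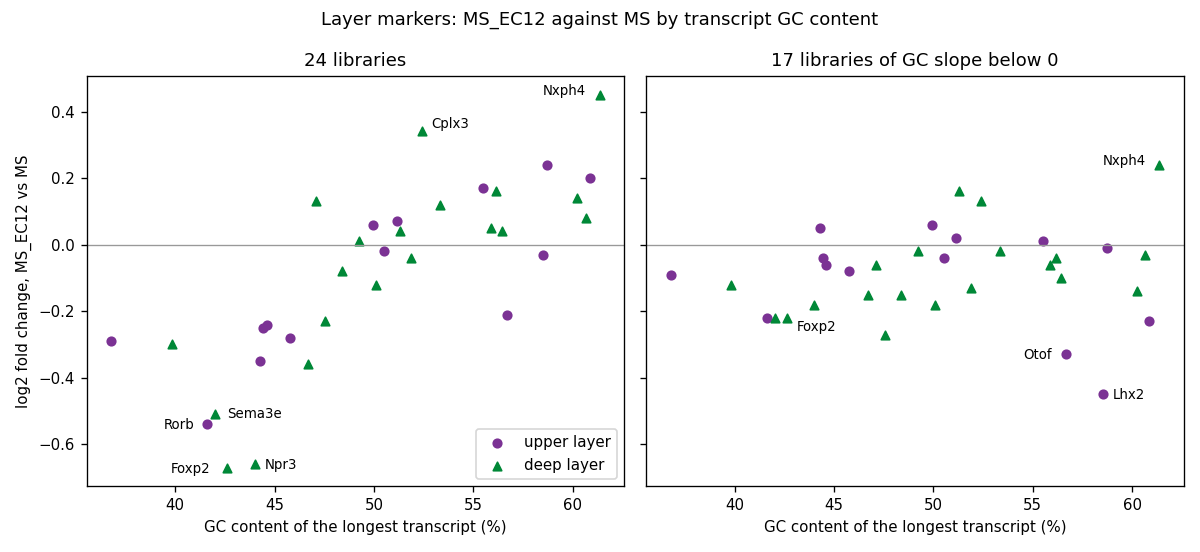
Log2 fold change in MS_EC12 against MS of each layer marker by the GC content of its longest transcript (%), in 24 libraries (left) and in the 17 libraries with a GC slope below 0 (right). Points run upward from Foxp2 (-0.67 at 42.63% GC) to Nxph4 (0.45 at 61.37% GC) on the left, and Pearson's r is 0.78 on the left and 0.13 on the right.

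The 17 libraries gave another set of low values. There, 27 of 34 members were negative in MS_EC12 against MS, with a median of -0.05 over upper and -0.112 over deep members, beside -0.003 over all genes. Lhx2, a LIM homeodomain factor, had the lowest value, -0.45 ± 0.0976 (edgeR, adjusted p = 0.131), beside -0.03 ± 0.107 in all 24 libraries. Its values were 33.3 and 30.9 CPM in the 2 MS_EC12 libraries with slopes below 0 and 42.0 to 51.1 CPM in the other 4, against 40.8 to 47.2 CPM in MS. Lhx2 has 58.52% GC, and it was singled out after its values were seen. No member passed in the 17 libraries in this comparison, beside 0.0733% of all genes, or in MS_EC12 against Control_EC12, beside 0.162%, or for the interaction, beside 0.0105%.

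The count of calls in MS_EC12 against MS depended on the method and on single libraries more than in any other comparison run. With DESeq2, 6 members passed, Rorb, Foxp2, Nxph4, Sulf1, Npr3 and Sema3e, beside 9.5% of all genes. With the replicate number as a block, 9 passed, beside 20.7%. Leaving out MS replicate 3 gave 7 members beside 21.3% of all genes, leaving out Control_EC12 replicate 4 gave 2, Foxp2 and Sema3e, beside 4.85%, leaving out MS_EC12 replicate 1 gave 11 beside 27.2%, and leaving out MS_EC12 replicate 2 gave 11 beside 24.9%. The other one-library-out fits gave 0. The first 2 MS_EC12 replicates are those with slopes below 0, so their removal left an MS_EC12 group with a larger share of slopes above 0. In all these settings the share of all genes called grew as well.

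MS_EC12 was compared with Control_EC12 to see the difference by MS among mice given EC-12. Upper markers had 5 positive and 9 negative values with a median of -0.055, and deep markers 13 and 7 with a median of 0.049, beside -0.024 over all genes. An unadjusted p under 0.05 was found for 4 members, Cplx3, Rgs8, Npr3 and Pou3f2, beside 15.9% of all genes. Groups did not overlap in 0 members and in 0.468% of all genes. Cplx3 had 15.3, 18.8 and 23.2 CPM in MS_EC12, against 9.51, 14.4 and 18.7 CPM in Control_EC12. All 6 MS_EC12 libraries were above the Control_EC12 median, and the log2 fold change was 0.35 ± 0.13 (edgeR, adjusted p = 0.258) and 0.30 ± 0.144 in the 17 libraries. Within the libraries with slopes above 0, Cplx3 was at 18.6 to 23.2 CPM in the 4 MS_EC12 libraries and at 17.8 and 18.7 CPM in the 2 Control_EC12 libraries.

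Rgs8 had 105.1, 130.8 and 142.3 CPM in MS_EC12, against 99.4, 108.2 and 130.0 CPM in Control_EC12. The groups overlapped, with 3 of 6 MS_EC12 libraries above the highest Control_EC12 one, and the log2 fold change was 0.19 ± 0.0817 (edgeR, adjusted p = 0.292), or 0.18 in the 17 libraries. Rgs8 and striatal markers were low in the same MS_EC12 libraries: replicates 1 and 4 had 105.1 and 106.4 CPM of Rgs8 with striatal sums of 1304.0 and 1552.8 CPM, and replicates 2, 3, 5 and 6 had 125.2 to 142.3 CPM with sums of 2407.1 to 3020.0 CPM. In Control_EC12 the libraries were mixed. Replicate 3 was highest in both, at 130.0 and 2540.6 CPM, but replicate 4 had the lowest Rgs8 value, 99.4 CPM, with a striatal sum of 2030.5 CPM. Of the 12 striatal markers 9 were positive in MS_EC12 against Control_EC12, with a median of 0.258, and 12 in the 17 libraries, with a median of 0.288. Their part in the Rgs8 values was not tested. Sulf2 had 108.0, 123.3 and 134.9 CPM in MS_EC12, against 95.1, 103.3 and 124.4 CPM in Control_EC12, and its log2 fold change was 0.19 ± 0.0929 (adjusted p = 0.318), or 0.04 in the 17. Npr3 stood lowest, with 3.85, 6.34 and 11.2 CPM in MS_EC12 and 6.3, 10.1 and 12.7 CPM in Control_EC12. For Npr3 the log2 fold change was -0.48 ± 0.214 (adjusted p = 0.3), but -0.13 ± 0.161 in the 17 libraries and -0.35 without MS_EC12 replicate 6. Foxp2 (-0.33 ± 0.191), Rorb (-0.29 ± 0.162) and Pou3f2 (-0.23 ± 0.107) were also negative, at 0.13, 0.0 and -0.12 in the 17. Among the libraries with slopes below 0 the values of Rgs8 and Cplx3 were close to those in all 24, and those of Npr3, Rorb and Sulf2 were closer to 0. For the 34 members, r between GC content and log2 fold change was 0.6 in all libraries and -0.28 in the 17, which were chosen by GC slope.

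The interaction asked whether the difference by EC-12 depended on MS. Upper markers had 7 positive and 7 negative values, with a median of -0.003, and deep markers 12 and 8, with a median of 0.056, beside -0.02 over all genes. One member, Inhbb, had an unadjusted p under 0.05, as did 4.8% of all genes. Inhbb averaged 6.28 ± 1.85 CPM in MS_EC12 and 5.45 ± 0.732 CPM in MS, and 5.98 ± 0.829 CPM in Control_EC12 and 7.28 ± 0.869 CPM in Control (SD, n = 6 each). The difference of the differences was 0.49 ± 0.213 on the log2 scale (edgeR, adjusted p = 0.83), with a 95% interval from 0.04 to 0.93. It was 0.13 ± 0.194 in the 17 libraries, where the 2 MS_EC12 libraries had 4.22 and 4.92 CPM. MS_EC12 replicates 3 to 6, with slopes above 0, had 8.31, 8.57, 5.03 and 6.62 CPM in that order. By p, Cplx3 (0.36 ± 0.184) and Pou3f3 (0.18 ± 0.11) came next among the positive values, although Fezf2 was larger than Pou3f3 at 0.29 ± 0.183. Foxp2 (-0.42 ± 0.269), Npr3 (-0.44 ± 0.301) and Etv1, an ETS factor of deep projection neurons (-0.25 ± 0.182), had the smallest p among the negative values, and Rorb had -0.29 ± 0.228. All of these had an adjusted p of 0.83. In the 17 libraries the values were 0.35 for Cplx3, 0.13 for Pou3f3, 0.29 for Fezf2, -0.07 for Foxp2, -0.17 for Npr3, -0.27 for Etv1 and -0.10 for Rorb.

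Levels of several other members follow. Mdga1, a membrane-anchored protein that binds neuroligins, had 45.7 ± 8.61 CPM in MS_EC12, 45.6 ± 9.54 in Control_EC12, 38.6 ± 7.98 in MS and 43.9 ± 6.7 in Control. Syt6, a synaptotagmin, had 58.2 ± 4.13 CPM in MS_EC12, 61.4 ± 7.74 in Control_EC12, 57.9 ± 6.72 in MS and 58.4 ± 5.21 in Control. Ntng2, a netrin-G family ligand at synapses, had 24 ± 1.78 CPM in MS_EC12, 21.9 ± 2.75 in Control_EC12, 22.7 ± 1.65 in MS and 23.4 ± 1.72 in Control (SD, n = 6 each). Tbr1 had 114.3 ± 8.58 CPM in MS_EC12, 106.2 ± 12.6 in Control_EC12, 117.7 ± 20 in MS and 115.4 ± 11.2 in Control. Tle4, a Groucho corepressor of corticothalamic neurons, had a log2 fold change of -0.23 ± 0.0884 in MS_EC12 against MS and -0.27 ± 0.115 in the 17 libraries (edgeR, adjusted p = 0.106 and 0.486). The zinc-finger factor Tshz2 had -0.18 ± 0.127 in MS against Control. Rasgrf2, a Ras exchange factor, and Plcxd2, a phospholipase-like protein, had -0.28 and -0.24 in MS_EC12 against MS, and -0.08 and -0.06 in the 17 libraries.

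Layer markers outside the list were read beside it. Of 8 other upper-layer genes, such as Lamp5 and Wfs1, and 13 other deep-layer genes tested, such as Sox5 and Nr4a2, 0 passed in any comparison in all 24 libraries. Their medians in MS_EC12 against MS were -0.012 and -0.206 (log2), and -0.188 and -0.109 in the 17 libraries. Nectin3, an adhesion protein, had -0.54 ± 0.147 (edgeR, adjusted p = 0.0768) and -0.23 in the 17 libraries, and in MS against Control 0.34 ± 0.147 (adjusted p = 1.0), where it passed in the 17 libraries with 0.39 (adjusted p = 0.00119). It also passed in the 17 libraries in Control_EC12 against Control, with 0.46 (edgeR, adjusted p = 0.000856), and for the interaction, with -0.69 (adjusted p = 0.0082). Of all genes 0.435%, 0.456% and 0.0105% passed there, in the same order. The 8 other upper-layer genes as a list had medians of 0.006, -0.07 and -0.053 there, with 5, 2 and 4 positive, and no other of them passed. The interaction in the 17 libraries rests on 2 MS_EC12 libraries. The 11 general markers of excitatory neurons had medians of 0.228 in MS_EC12 against MS and 0.006 in the 17 libraries.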

How the data were processed

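The members, their division into upper and deep layers and the marker lists were chosen with earlier results of these data known. The table the authors deposited holds, per the file headers, unnormalized read counts of genes as whole numbers, beside FPKM and TPM values. FPKM was not used, and TPM served for levels between genes and 1 alternative. Per the submitters' processing notes the build was mm10, and the tools included HISAT2 2.1.0 and StringTie 2.1.3b, with FastQC 0.11.7 and Trimmomatic 0.38. The RNA kit was stranded per the labels' protocols, and no source used here gives the counting rule or whether it used strand.

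Counts were tested with edgeR 4.0.16 in R 4.3.3: filterByExpr (minimum count 10, minimum total 15) left 18380 genes, TMM scaling was used, and 24 libraries entered 1 quasi-likelihood fit with 1 coefficient per group. P-values are 2-sided, with Benjamini-Hochberg adjustment across the 18380 genes in the main fit. Fits that left libraries out were filtered again and adjusted over the genes kept, 19098 in the 17 libraries. An adjusted p under 0.05 was a call. SE values are from the F statistic, CPM values use TMM, and log2 CPM a prior count of 2. Transcript GC came from GENCODE transcripts of GRCm38, which cover 82.4% of genes tested and all 34 members. No libraries were duplicates (smallest chi-square per gene within a group 5.02). Full values are given for members that pass and for the 3 of smallest p in each direction in each comparison. Alternatives were size factors of the RLE type, DESeq2 1.42.0, no filter on low counts, the GC slope as a covariate, the 17 libraries alone, the replicate number as a block with and without the GC slope, limma 3.58.1 on log2(TPM + 1), and each library left out in turn. The code was tested on simulated data. Depth limits genes with few reads most, such as Nxph4 and Inhbb.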

Additional observations from a re-analysis of the deposited data

Results flagged for a closer look

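In 140 sets of 6 libraries, for 34 genes and the upper minus deep value in each group, 7 held a library far from the other 5 by Dixon's test, and chance alone gives about 1 in 20. The number flagged is thus about what chance gives, and the values are listed as a description. Lhx2 in Control_EC12 had 35.7 CPM in replicate 2, below the next library at 44.2 CPM. Syt6 in the same library had 76.3 CPM, above the next at 62.9 CPM. Inhbb in Control had 9.02 CPM in replicate 5, with the next at 7.18 CPM. Fezf2 in MS had 16.7 CPM in replicate 1, with the next at 25.3 CPM. Foxp2 had 18.2 CPM in MS replicate 3, with the next at 31.0 CPM, and 15.9 CPM in Control_EC12 replicate 3, with the next at 23.6 CPM. Both of these Foxp2 libraries have a GC slope above 0, 0.272 and 0.44, and the part of the slope in the values was not tested. Pcp4 in MS_EC12 had 256.9 CPM in replicate 1, with the next at 317.9 CPM.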

How the results depend on the processing

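Calls among the 34 layer markers stayed at 0 in MS against Control, in MS_EC12 against Control_EC12 and for the interaction under all 32 alternatives. In Control_EC12 against Control 1 member, Crym, passed in the 17 libraries with a GC slope below 0. In MS_EC12 against MS 6 members passed with DESeq2 and 9 with the replicate block, and leaving out single libraries gave 0 to 11. The cause was not tested. The labels do not say whether replicate numbers pair the libraries. Same-numbered deviations correlated from -0.212 to 0.435 in MS_EC12 against MS and from -0.3 to 0.46 in MS_EC12 against Control_EC12. Replicate 3 had a GC slope above 0 in MS, Control_EC12 and MS_EC12, though not in Control. The numbers carry no stated meaning, and what same-numbered libraries share was not tested. With the block and the GC slope together, 0 members passed. Upper minus deep in MS_EC12 against MS was -0.039 by means and 0.062 by medians over members, both smaller than the within-group SD of 0.094. In MS against Control it was -0.091 by means and -0.17 by medians, and in Control_EC12 against Control -0.063 in all libraries and -0.003 in the 17. Of 300 fold changes of named members recomputed, 284 stayed on their side of the threshold, 14 came to pass it, all in MS_EC12 against MS, and 2 changed sign beyond 1 SE, neither of them called: Rprm in Control_EC12 against Control (-0.09 in the 17 libraries) and Rorb in MS_EC12 against Control_EC12 (0.02 with the block and the GC slope). Low counts limit Nxph4, Inhbb and Npr3 most.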
